A study of Mus musculus with 23 samples.

Results

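Txnip and 5 genes of the glucose-responsive program of the transcription factor ChREBP, namely Arrdc4, Mlxipl, Pklr, Khk and Tkfc, were followed across the livers of CYP2E1-KO and WT mice of both sexes. The 6 genes were taken by name from the 65535 genes of the deposited table, and all 6 were among the 11370 genes with enough counts to be tested. Txnip was chosen by its measured difference between KO and WT females, which had passed a test in earlier work on these data, and the other 5 were added for their place in the same program. For the 6 genes that comparison, and every comparison that contains it, is therefore given below as values with no test. RNA from whole liver was converted to cDNA and counted at the 3′ ends of transcripts. Females gave 5 WT and 6 KO libraries and males gave 6 of each genotype, all of which the labels call biological replicates. KO mice were of the line 129/Sv-Cyp2e1tm1Gonz/J, a germline knockout of the ethanol- and drug-metabolising cytochrome Cyp2e1, and WT mice were of 129S1/SvImJ, so the allele and any other difference between the lines cannot be told apart. All mice were co-housed on normal chow and received no treatment named in the labels. Their age is given as 12 to 13 weeks in the description of their housing and as 16 weeks in another field. The feeding state and the hour of collection are not given in the labels used here.

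ChREBP, the product of Mlxipl, is a glucose-sensing factor that enters the nucleus when sugar phosphates build up in the cell, pairs with its partner Mlx and binds carbohydrate response elements, in which a pair of E-box-like sequences stand a fixed distance apart. In liver it turns on genes for glycolysis, fructose breakdown and fat synthesis after carbohydrate-rich meals, together with insulin-driven factors. Txnip and Arrdc4 are alpha-arrestins that sit among its most sugar-sensitive targets and those of the related factor MondoA. Txnip binds thioredoxin and restrains glucose uptake, and Arrdc4 is its close relative that also acts on glucose transporters. Pklr makes the liver pyruvate kinase of the last step of glycolysis, Khk makes ketohexokinase, which traps fructose in the cell, and Tkfc makes the triokinase that phosphorylates glyceraldehyde released from fructose.

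Promoter sequences show where these genes carry the paired element. They were read from a RefSeq promoter table on GRCm38.p6, which holds 8 promoters for the 6 genes, each with 250 bases before and 50 bases after the annotated start. The deposited table was made on mm39, so the positions belong to GRCm38.p6 alone. The paired element was searched as CNCGNGNNNNNCNCGNG and the single E-box as CACGTG. Both motifs read the same on both strands, and CACGTG is one spelling of the boxes of the paired motif. The letters of the paired motif were chosen after the Txnip and Pklr sequences had been read, so a match in these genes is a description only. Both promoters are shown whole, 5′ to 3′ on the plus strand, with the match in capitals. The Txnip promoter is chr3:96557707-96558006 and its match lies 85 to 69 bases before the start (positions -85 to -69). The Pklr promoter is the second of its RefSeq starts, chr3:89136373-89136672, and its match lies at positions -170 to -154.
Txnip: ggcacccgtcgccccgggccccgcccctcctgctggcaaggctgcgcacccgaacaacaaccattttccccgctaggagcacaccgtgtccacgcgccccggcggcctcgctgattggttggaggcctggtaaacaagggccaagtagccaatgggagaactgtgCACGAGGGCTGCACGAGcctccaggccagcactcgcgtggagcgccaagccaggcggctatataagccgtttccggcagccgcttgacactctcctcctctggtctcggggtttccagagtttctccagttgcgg
Pklr: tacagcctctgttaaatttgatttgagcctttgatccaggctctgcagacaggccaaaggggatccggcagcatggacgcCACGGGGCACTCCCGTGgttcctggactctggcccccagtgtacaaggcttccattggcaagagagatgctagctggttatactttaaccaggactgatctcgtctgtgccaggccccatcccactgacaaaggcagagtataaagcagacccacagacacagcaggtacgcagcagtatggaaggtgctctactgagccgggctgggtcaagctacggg

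The paired motif was found in 456 of 32851 RefSeq promoters of this length (1.39%), and CACGTG in 2349 (7.15%). Stretches with a single CACGTG, shown with 15 bases on each side and read 5′ to 3′ in the gene's direction, come from promoters without the paired motif. The Arrdc4 stretch is chr7:68749411-68749446 on the minus strand, with the E-box at positions -193 to -188. The Mlxipl stretch is chr5:135089777-135089812 on the plus strand, with the E-box at -98 to -93 of its second RefSeq start. The Khk stretch is chr5:30921473-30921508 on the plus strand, with the E-box at -71 to -66.
Arrdc4: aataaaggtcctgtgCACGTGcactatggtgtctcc
Mlxipl: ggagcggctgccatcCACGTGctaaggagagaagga
Khk: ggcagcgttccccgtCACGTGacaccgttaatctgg
Neither motif was in the promoter of Tkfc, in the first promoter of Mlxipl or in the first promoter of Pklr, which says only that these letters are not in those windows.

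The libraries held between 1538889 and 9874733 counts, with the smallest in Male KO replicate 3. The share of counts in mitochondrially encoded genes was 7.32% to 16.2%, and Male KO replicate 3 stood at 16.1%. Cyp2e1, the targeted gene, had 323 to 543 CPM (counts scaled to a common library size) in the WT libraries and 18.1 to 49.4 CPM in the KO libraries, so no KO library reached the WT range. The 10 hepatocyte markers, led by albumin and apolipoprotein genes, summed to 99200 to 130000 CPM in every library, so the labelled liver carried its defining markers. CPM values below are the deposited ones, given as mean ± SD over libraries. Differences on the log2 scale come from edgeR's quasi-likelihood fit of the counts of all 23 libraries.

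Txnip was highest in the livers of WT females. The 5 Female WT libraries had 25.8, 16.3, 9.91, 19.8 and 15.1 CPM. The 6 Female KO libraries ran from 4.15 CPM in replicate 4 over a median of 7.56 CPM to 11.3 CPM in replicate 2. Every Female KO library lay below the Female WT median, and 5 of the 6 lay below the lowest Female WT library. The groups still overlapped, since Female WT replicate 3, at 9.91 CPM, was below Female KO replicate 2. The means were 17.4 ± 5.88 CPM (SD, n = 5) in Female WT and 7.67 ± 2.34 CPM (SD, n = 6) in Female KO. The fitted log2 difference was -1.14 (SE 0.20, 95% interval -1.54 to -0.73), a 2.20-fold lower level in KO. This is the contrast that chose the gene, and it carries no test here. Its size may be overstated by that choice, and the interval does not serve as a test. The difference ran from -1.29 to -0.97 when each female library was left out in turn, which draws on the same values. The value was -0.97 without Female WT replicate 1, the library with the highest level, and -1.04 without Female KO replicate 4, the one with the lowest.

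In males Txnip did not differ between the genotypes beyond its spread. The 6 Male WT libraries ran from 7.95 over a median of 9.30 to 12.3 CPM. The 6 Male KO libraries ran from 7.78 over a median of 9.13 to 13.7 CPM, and the groups overlapped over nearly their whole range. The mean was 9.68 ± 1.72 CPM for Male WT livers and 9.68 ± 2.05 CPM for those of KO males (SD, n = 6 each). The log2 difference of KO from WT was 0.08 (SE 0.20, 95% interval -0.32 to 0.48), with an adjusted p of 0.899 by edgeR's quasi-likelihood test. The difference between the sexes in the KO effect was 1.22 (SE 0.28, 95% interval 0.64 to 1.79), which contains the female contrast and was therefore not tested. The choice of Txnip bears on this size and interval as well. Without Male KO replicate 2, the highest male library, the male difference was 0.00 (adjusted p = 0.999, edgeR).

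Depth limits these values, since Txnip was read from only 14 to 112 counts a library. Seen across groups, Female WT stood first, the male groups followed at the same mean, and Female KO came last. Only the gap of 7.72 CPM between Female WT and Male WT exceeded the larger SD of the neighbouring groups, 5.88 CPM. Male and female levels of Txnip, averaged over genotypes, differed by -0.12 (SE 0.14, 95% interval -0.41 to 0.17, adjusted p = 0.599, edgeR). That average joined a lower male level in WT (-0.73, SE 0.19) with a higher male level in KO (0.49, SE 0.20), both given as values with no test.

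**Figure D1:**
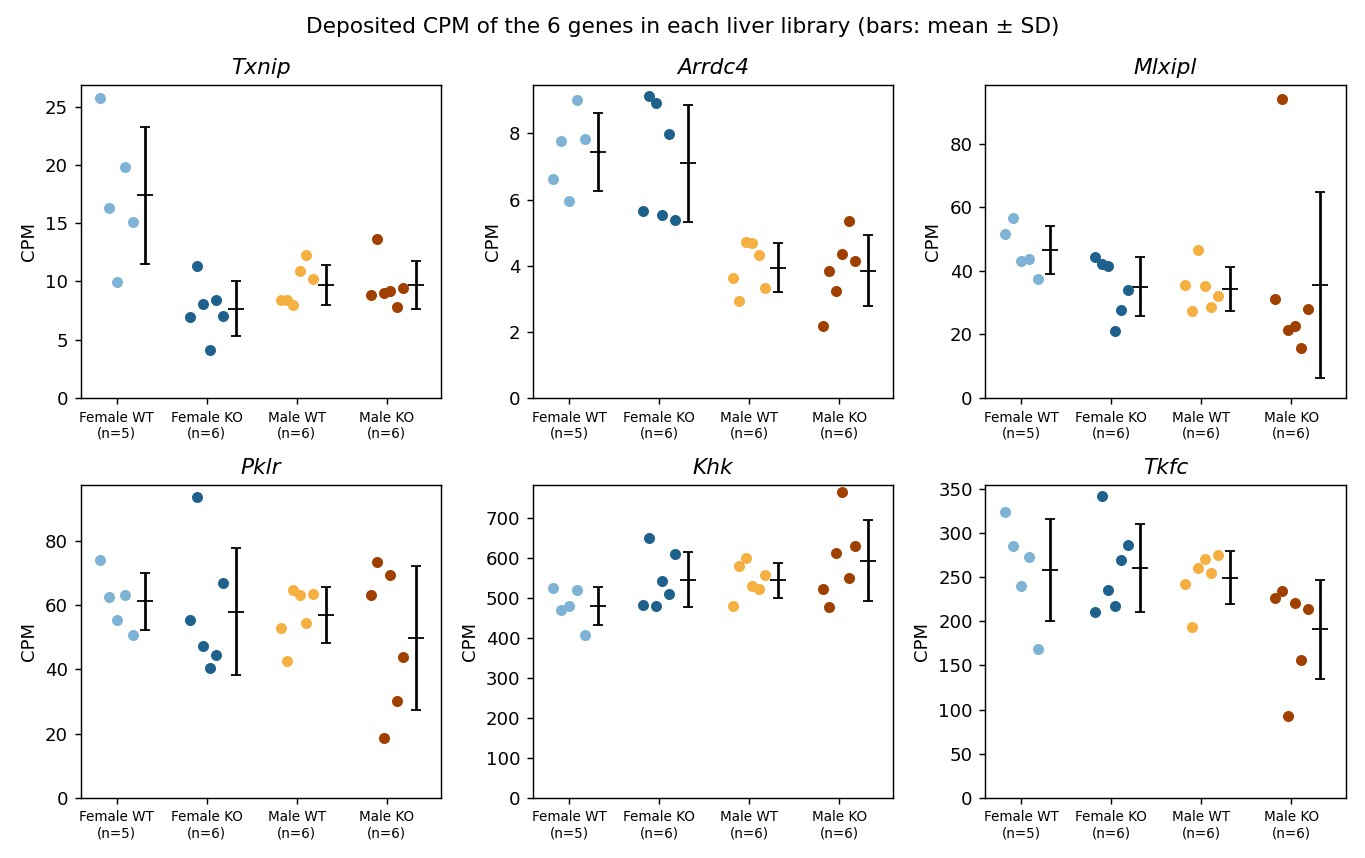
Deposited CPM of the 6 genes in each of the 23 libraries (points) by group, with group means and SD bars; each panel has its own linear CPM axis from 0. Txnip stands highest in Female WT (mean 17.4 CPM), Arrdc4 is lower in all 12 male libraries, and Male KO replicate 2 stands apart in Mlxipl at 94.1 CPM.

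Summed markers of other liver cell types also differed in level among the female livers. The 14 markers of sinusoidal endothelium, the lining of the liver's capillaries, summed to 343 to 400 CPM in Female WT and to 105 to 389 CPM in Female KO. Replicate 4 was lowest among the Female KO libraries in this sum, as it was in Txnip, and 4 of 6 Female KO libraries lay below every Female WT library. Of the 14 markers, 13 had a negative log2 difference in females, with a median of -0.51 against 0.01 over all genes. However, 0 of the 14 were called there, where 0.193% of all genes were, and 0 were at 0 throughout a group. In males the sums were 254 to 323 CPM in WT and 186 to 372 CPM in KO. Markers of Kupffer cells, the resident macrophages of the liver, summed to 174 to 267 CPM in Female WT and to 91.7 to 399 CPM in Female KO, with replicate 4 again lowest. In males the Kupffer markers summed to 124 to 185 CPM in WT and to 142 to 420 CPM in KO. Their median log2 difference of KO from WT was -0.18 in females and 0.61 in males. Markers of B and plasma cells summed to 12.3 to 18.0 CPM in Female WT and to 26.2 to 45.4 CPM in Female KO. Males also had higher sums of these in KO, with 11.1 to 16.9 CPM in WT and 18.2 to 59.3 CPM in KO. Only 2 of these 7 markers had enough counts to be tested, and a single immunoglobulin gene made up most of the sum in every group. Whether these cell types bear on Txnip was not tested, and in bulk tissue fewer cells of a type and less RNA per cell cannot be told apart.

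Arrdc4, the arrestin nearest to Txnip, was lower in males of both genotypes. The 5 Female WT libraries had 6.63, 7.77, 5.95, 9.02 and 7.83 CPM. The Female KO libraries ran from 5.39 over a median of 6.82 to 9.12 CPM. Female groups overlapped, with a WT mean of 7.44 ± 1.19 CPM (SD, n = 5) and a KO mean of 7.10 ± 1.77 CPM (SD, n = 6). The Male WT libraries ran from 2.93 over a median of 3.98 to 4.73 CPM, with a mean of 3.94 ± 0.747 CPM (SD, n = 6). The Male KO libraries ran from 2.17 over a median of 3.98 to 5.36 CPM, with a mean of 3.85 ± 1.08 CPM (SD, n = 6). All 12 male libraries were below all 11 female libraries, and the groups did not overlap in WT or in KO. Over all tested genes 7.95% were called lower in males, while the share whose libraries did not overlap between the sexes was not counted. The log2 difference of males from females, averaged over genotypes, was -0.77 (SE 0.14, 95% interval -1.07 to -0.47), a 1.70-fold lower level with an adjusted p of 0.000383 by edgeR. It was -0.80 in WT (SE 0.20) and -0.74 in KO (SE 0.21). KO against WT gave 0.02 in males (SE 0.22, 95% interval -0.43 to 0.47, adjusted p = 0.991, edgeR) and -0.04 in females (SE 0.19). These levels rest on 5 to 51 counts a library. In the order of group means, only the gap of 3.16 CPM between Female KO and Male WT exceeded the larger SD of the neighbouring groups, 1.77 CPM.

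Of the other 4 alpha-arrestins on the list only Arrdc3, an arrestin of receptor endocytosis, had enough counts to be tested, and Arrdc5 was listed at 0 in every library. Arrdc3 had 43.9 ± 14.5 CPM in Female WT (SD, n = 5), 23.1 ± 7.06 CPM in Female KO, 48.1 ± 13.3 CPM in WT males and 39.5 ± 15.3 CPM in KO males (SD, n = 6 each). It was 1.47-fold higher in males (log2 0.56, SE 0.17, adjusted p = 0.0324, edgeR), the opposite direction to Arrdc4, though the call held in only 15 of 23 fits that left out 1 library. Its KO difference was -0.87 in females (SE 0.25, adjusted p = 0.228, edgeR) and -0.22 in males (SE 0.24, adjusted p = 0.713, edgeR).

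Of the 13 tested genes of the thioredoxin and peroxiredoxin system, whose reduced thioredoxin is what Txnip binds, 2 were higher in males and 0 lower, a share of 15.4% beside 14.8% over all genes. Prdx5, a peroxiredoxin of mitochondria and peroxisomes, rose in males (log2 0.48, SE 0.09, adjusted p = 0.000253, edgeR). Prdx2, a cytosolic peroxiredoxin, did so by less (0.29, SE 0.10, adjusted p = 0.0494, edgeR), and its call held in only 4 of 23 fits without 1 library. Thioredoxin itself, Txn1, had a log2 difference of 0.22 between the sexes (adjusted p = 0.101) and of 0.02 between KO and WT males (adjusted p = 0.965, both edgeR). No gene of this list was called for genotype in males, where 0.132% of all genes were.

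Mlxipl, the gene of ChREBP itself, did not differ beyond its spread in either tested comparison. The Female WT libraries had 51.6, 56.6, 43.2, 43.9 and 37.5 CPM. The Female KO libraries ran from 21.0 in replicate 4 over a median of 37.7 to 44.2 CPM, and 3 of the 6 were below every Female WT library. Group means were 46.5 ± 7.51 CPM (SD, n = 5) and 35.1 ± 9.24 CPM (SD, n = 6), with a log2 difference of -0.38 (SE 0.26, 95% interval -0.91 to 0.14) that was not tested. The Male WT libraries ran from 27.2 over a median of 33.7 to 46.6 CPM, with a mean of 34.2 ± 6.92 CPM (SD, n = 6). The Male KO libraries ran from 15.8 over a median of 25.4 to 94.1 CPM, with a mean of 35.5 ± 29.2 CPM (SD, n = 6).

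A single library set the male result for Mlxipl. Male KO replicate 2 held the 94.1 CPM and the next highest Male KO library 31.2 CPM, below the Male WT median. With all libraries the male log2 difference was 0.10 (SE 0.25, 95% interval -0.41 to 0.61, adjusted p = 0.895, edgeR), and without that library it was -0.40 (SE 0.16, adjusted p = 0.177). Males against females gave -0.09 (SE 0.18, adjusted p = 0.778) with all libraries and -0.34 (SE 0.11, adjusted p = 0.03) without that library, both by edgeR, so the sex call for Mlxipl depended on it. The same library was also the highest of its group in Txnip (13.7 CPM), Pklr (73.4 CPM) and Tkfc (235 CPM), and the lowest in Khk (477 CPM).

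Among the 7 partners and regulators of ChREBP, 0 were called for sex and 0 for genotype in males by edgeR. Over all genes the shares were 14.8% and 0.132%. At an unadjusted p under 0.05, 1 of the 7 passed for genotype in males, where 1492 of all 11370 tested genes did. Mlx, the partner without which ChREBP does not bind DNA, had log2 differences of 0.35 by sex (SE 0.13, adjusted p = 0.0684, edgeR) and 0.33 by genotype in males (SE 0.18, adjusted p = 0.422, edgeR). Ppp2ca, a catalytic subunit of the phosphatase that acts on ChREBP, gave 0.08 by sex (adjusted p = 0.475, edgeR). Oga, which removes O-GlcNAc from proteins, gave -0.16 (adjusted p = 0.265, edgeR).

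Pklr, the liver pyruvate kinase, was level across the 4 groups but spread widely within the KO groups. The Female WT libraries had 74.1, 62.7, 55.4, 63.3 and 50.9 CPM. The Female KO libraries ran from 40.3 over a median of 51.3 to 93.9 CPM, and the Male WT libraries from 42.5 over a median of 58.9 to 64.9 CPM. The Male KO libraries ran from 18.7 over a median of 53.4 to 73.4 CPM. All 4 groups overlapped, and the lowest value, in Male KO replicate 3, rested on 29 counts. Means were 61.3 ± 8.88 CPM in Female WT (SD, n = 5), 58.0 ± 19.9 CPM in Female KO, 56.9 ± 8.67 CPM in WT males and 49.7 ± 22.4 CPM in KO males (SD, n = 6 each). The log2 difference of KO from WT in males was -0.12 (SE 0.20, 95% interval -0.54 to 0.30, adjusted p = 0.835, edgeR). Males differed from females by -0.04 (SE 0.15, adjusted p = 0.905, edgeR).

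Khk, which makes the first enzyme of fructose breakdown, was slightly higher in males. The Female WT libraries had 525, 470, 479, 519 and 407 CPM. The Female KO libraries ran from 481 over a median of 527 to 649 CPM. The Male WT libraries ran from 479 over a median of 544 to 601 CPM, and the Male KO libraries from 477 over a median of 582 to 766 CPM. The groups overlapped, and 10 of 12 male libraries were above the female median. Means were 480 ± 47.2 CPM in Female WT (SD, n = 5), 546 ± 69.4 CPM in Female KO, 545 ± 43.9 CPM in WT males and 593 ± 102 CPM in KO males (SD, n = 6 each). Males were 1.22-fold higher than females (log2 0.28, SE 0.10, 95% interval 0.08 to 0.48, adjusted p = 0.049, edgeR). That call held in only 6 of 23 fits without 1 library and is no firm one. KO against WT gave 0.22 in males (SE 0.13, 95% interval -0.05 to 0.50, adjusted p = 0.467, edgeR) and 0.23 in females (SE 0.14, not tested).

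Tkfc, the triokinase gene, was lowest in Male KO. The Female WT libraries had 323, 286, 240, 273 and 168 CPM. The Female KO libraries ran from 210 over a median of 253 to 342 CPM, and the Male WT libraries from 193 over a median of 257 to 275 CPM. The Male KO libraries ran from 92.3 in replicate 3 over a median of 217 to 235 CPM. All 6 Male KO libraries were below the Male WT median and 5 of 6 Male WT libraries were above every Male KO library, yet Male WT replicate 2 kept the groups overlapping. Means were 258 ± 58.3 CPM in Female WT (SD, n = 5), 260 ± 49.9 CPM in Female KO, 249 ± 29.9 CPM in WT males and 191 ± 55.7 CPM in KO males (SD, n = 6 each). The log2 difference of KO from WT in males was -0.32 (SE 0.16, 95% interval -0.65 to 0.02) and did not pass the test (adjusted p = 0.400, edgeR). It was -0.19 (SE 0.15, adjusted p = 0.583) without Male KO replicates 2 and 3. KO against WT in females gave 0.06 (SE 0.17), and males against females gave -0.13 (SE 0.12, adjusted p = 0.497, edgeR).

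In the order of their group means, neighbouring groups of Mlxipl and Pklr never differed by more than the larger of their SDs. Khk had 1 such gap, 65 CPM between Male WT and Female WT, and Tkfc had 1, 58 CPM between Male WT and Male KO. Counted together, 0 of the 6 genes were called for genotype in males, where 0.132% of all 11370 tested genes were (15 genes). None of the 6 had an unadjusted p under 0.05 there, where 1492 of the 11370 genes did. DESeq2 and limma-voom also called 0 of the 6. For sex 2 of 6 (33.3%) were called, Arrdc4 lower and Khk higher in males, where 14.8% of all genes were called, 6.83% higher and 7.95% lower. DESeq2 called 2 and limma-voom 1 of the 6 for sex. In females 0.193% of all genes were called for genotype. Since that contrast chose Txnip, the 6 genes were not tested in it.

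**Figure D2:**
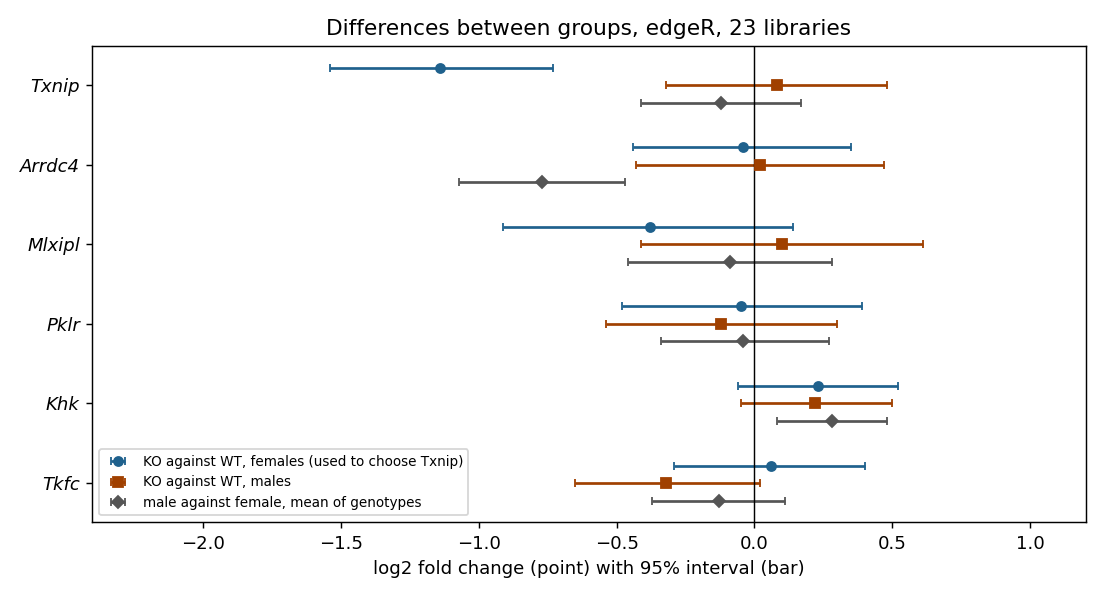
Log2 difference of each of the 6 genes in KO against WT females, KO against WT males, and males against females averaged over genotypes, with 95% intervals from edgeR; the vertical line is at 0. Txnip lies at -1.14 in females and 0.08 in males, and Arrdc4 at -0.77 in males against females. The female contrast chose Txnip, so its interval there is no test.

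Most other genes of the ChREBP program did not pass the test for sex. Of 20 tested targets outside the 6 genes, 4 (20%) were lower in males and 0 higher, where 7.95% of all genes were lower and 6.83% higher. Of the 20, 18 had a negative difference, while 49.1% of all genes had a positive one, and the median log2 difference was -0.20 against -0.01 over all genes. Tm6sf2, which takes part in loading lipid into very low density lipoprotein, was 2.35-fold lower in males (log2 -1.23, SE 0.13, adjusted p = 5.78e-08, edgeR). Its means were 70.3 ± 5.96 CPM in Female WT (SD, n = 5), 67.0 ± 13.7 CPM in Female KO, 27.8 ± 6.74 CPM in WT males and 25.2 ± 9.38 CPM in KO males (SD, n = 6 each). Acacb and Acaca, the acetyl-CoA carboxylases of fat oxidation control and fat synthesis, were lower in males by -0.85 (adjusted p = 0.0134) and -0.38 (adjusted p = 0.0388), and the clock-linked repressor Bhlhe40 by -0.37 (adjusted p = 0.0206, all edgeR). The call of Acaca held in only 10 of 23 fits without 1 library. Among abundant targets, the desaturase gene Scd1 gave -0.40 (adjusted p = 0.252) and the lipogenic regulator Thrsp 0.54 (adjusted p = 0.187, both edgeR), and neither passed the test for sex.

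For genotype in males 0 of these 20 targets were called by edgeR, where 0.132% of all genes were. Of the 20, 16 were negative, with a median of -0.12 against 0.04 over all genes. In females the median was -0.03, with 12 of 20 negative. The targets were spread widely around that median. Named after their values were seen, the lowest in females were Klf10 at -1.02 (SE 0.37), Rgs16 at -0.89 (SE 0.56) and Scd1 at -0.71 (SE 0.33). The other 8 of the 20 were positive, the highest being Mid1ip1 at 0.37 (SE 0.19) and Thrsp at 0.21 (SE 0.39). None of the 20 were called in females, where 0.193% of all genes were.

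**Figure D3:**
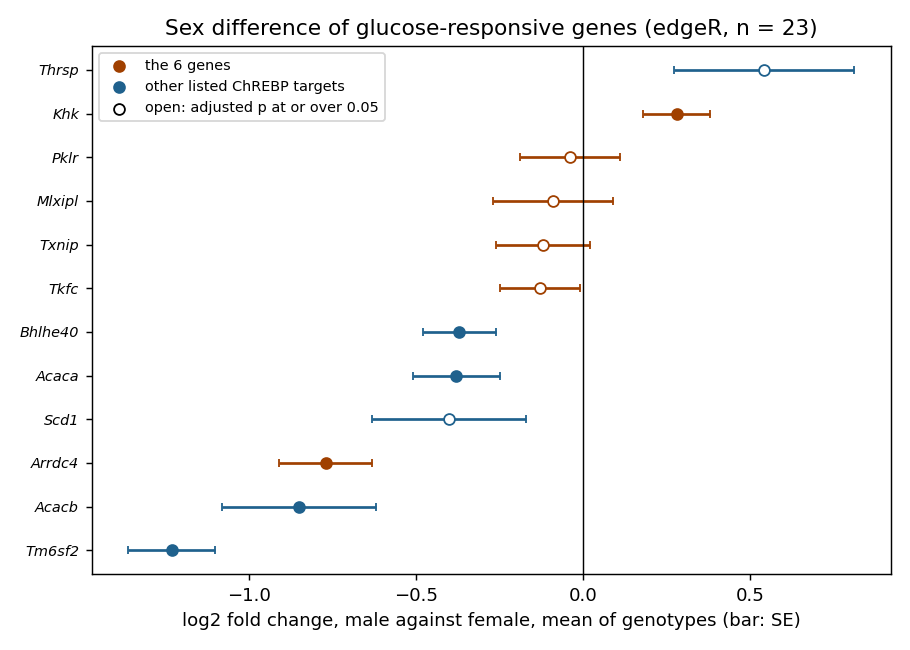
Log2 difference of males from females, averaged over genotypes, for the 6 genes and for Tm6sf2, Acacb, Acaca, Bhlhe40, Scd1 and Thrsp. Bars are 1 SE from edgeR, and filled points passed an adjusted p of 0.05. Among the genes shown, Tm6sf2 at -1.23, Acacb at -0.85 and Arrdc4 at -0.77 lie farthest to the lower side.

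Genes of sugar entry and breakdown around Khk, Tkfc and Pklr held few calls for sex, and those of sugar synthesis held 3. Of 12 genes for glucose and fructose entry and fructose breakdown, 0 were called for sex by edgeR, DESeq2 or limma-voom and 2 had an unadjusted p under 0.05, where 14.8% of all 11370 genes were called and 3379 had such a p. Their median was -0.01, that of all genes. Of 19 glycolysis genes 1 was called (5.26%), Aldoa, the aldolase of muscle and most other tissues, higher in males (log2 0.35, SE 0.08, adjusted p = 0.00223, edgeR). Of 10 gluconeogenesis genes 3 were called (30%), all lower in males. Ppargc1a, a coactivator of the fasting response, gave -0.96 (SE 0.15, adjusted p = 4.12e-05, edgeR). Pck1, the gene of phosphoenolpyruvate carboxykinase, gave -0.70 (SE 0.19, adjusted p = 0.0132, edgeR). Foxo1, a transcription factor held back by insulin, gave -0.48 (SE 0.16, adjusted p = 0.04, edgeR), with a call that held in 12 of 23 fits without 1 library.

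Lists that follow feeding and the hour of the day were measured because ChREBP targets move with both. Of 15 tested genes of the fasting and insulin response, 0 were called for genotype in males by edgeR, beside 0.132% of all genes. Their median was -0.19 in males and -0.30 in females against 0.04 and 0.01 over all genes. For sex 2 of the 15 were called (13.3%), beside 14.8% of all genes. Irs2 and Irs1, adaptor proteins of the insulin receptor, were lower in males than in females by -0.64 (adjusted p = 0.0333) and -0.61 (adjusted p = 0.0412, both edgeR), with calls that held in 13 and 10 of 23 fits without 1 library. The KO difference of Irs2 was -0.98 in males (SE 0.29, adjusted p = 0.185, edgeR) and -0.99 in females (SE 0.28, adjusted p = 0.223, edgeR). It passed in males when low genes were kept (adjusted p = 0.000414, edgeR). Of 14 clock genes 0 were called by edgeR for sex or for genotype in males, where 14.8% and 0.132% of all genes were. Their medians for KO against WT were -0.46 in males and -0.20 in females. Whether feeding or hour of collection bears on Txnip was not tested.

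Some of these genes split the libraries by replicate number, a pattern noticed after their values were seen. Insig2, which restrains sterol synthesis, was higher in replicates 1 to 3 than in replicates 4 to 6 in all 4 groups, for example at 156 to 207 CPM against 56.1 to 76.2 CPM in Male WT and at 161 to 171 CPM against 101 to 133 CPM in Female KO. The clock genes Nr1d1 and Dbp were split in this way in 3 of 4 groups each, Nr1d1 higher and Dbp lower in replicates 1 to 3. Among the 6 genes, Arrdc4 was split in 2 groups, Txnip and Mlxipl in 1 each, and Pklr, Khk and Tkfc in 0. How often all tested genes split in this way was not counted, so these numbers are not read as a trait of the 6 genes. Txnip in Male WT had 7.95 to 8.41 CPM in replicates 1 to 3 and 10.2 to 12.3 CPM in the others. What the numbers stand for is not given in the labels used here. A fit with the replicate number as a block gave Txnip 0.04 in males (adjusted p = 0.958) and Arrdc4 -0.75 by sex (adjusted p = 0.000381, both edgeR).

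Over all 104 tested genes of these pathway lists, edgeR called 0 for genotype in males, while DESeq2 called 1 and limma-voom 0. The edgeR share over all genes was 0.132%. By edgeR 16 of the 104 had an unadjusted p under 0.05, beside 1492 of all 11370 tested genes. The DESeq2 call was Foxo1 (log2 -0.87, adjusted p = 0.0463). With low genes kept, edgeR also called it (-0.91, adjusted p = 0.00061). With the default filter edgeR gave -0.85 (adjusted p = 0.141), and limma-voom gave -0.82 (adjusted p = 0.184). For sex edgeR called 13 of the 104 (12.5%), beside 14.8% of all genes, with 9 lower and 4 higher in males.

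Within groups, the liver pyruvate kinase and triokinase genes varied together from animal to animal. Each library's deviation from its group mean was correlated between every pair of the 6 genes over 23 libraries, with p-values from 100000 permutations within groups, two-sided, adjusted over the 15 pairs. Pklr and Tkfc gave Pearson's r = 0.82 (permutation p = 2e-05, adjusted 0.0003) and Spearman's rho = 0.84 (permutation p = 2e-05, adjusted 0.0003). Without the 2 libraries farthest from the Pklr median, Male KO replicate 3 and Female KO replicate 2, r was 0.68. By group r was 0.71 in Female KO (exact permutation p = 0.125), 0.94 in Male WT (exact permutation p = 0.00417) and 0.90 in Male KO (exact permutation p = 0.0208), over 6 libraries each. None of these group values passed an adjustment over the 45 such tests. Among 11369 genes Tkfc ranked 8 by its correlation with Pklr, and Pklr ranked 9 by its correlation with Tkfc.

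Library depth and the mitochondrial share were compared with the same deviations. Deviations of Pklr had r = 0.61 and rho = 0.45 with the log2 total count (permutation p = 0.018 and 0.035), and r = -0.55 with the mitochondrial share (permutation p = 0.034). Those of Tkfc had r = 0.50 with the log2 total count (permutation p = 0.093) and r = -0.65 with the mitochondrial share (permutation p = 0.014). After adjustment over 12 such tests the smallest p was 0.11. Without the 2 farthest libraries the values were 0.35 and -0.27 for Pklr and 0.12 and -0.24 for Tkfc. The part of depth and RNA quality in the correlation of Pklr with Tkfc was not tested beyond leaving out Male KO replicate 3, the shallowest library, which gave r = 0.68 (permutation adjusted p = 0.0034).

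**Figure D4:**
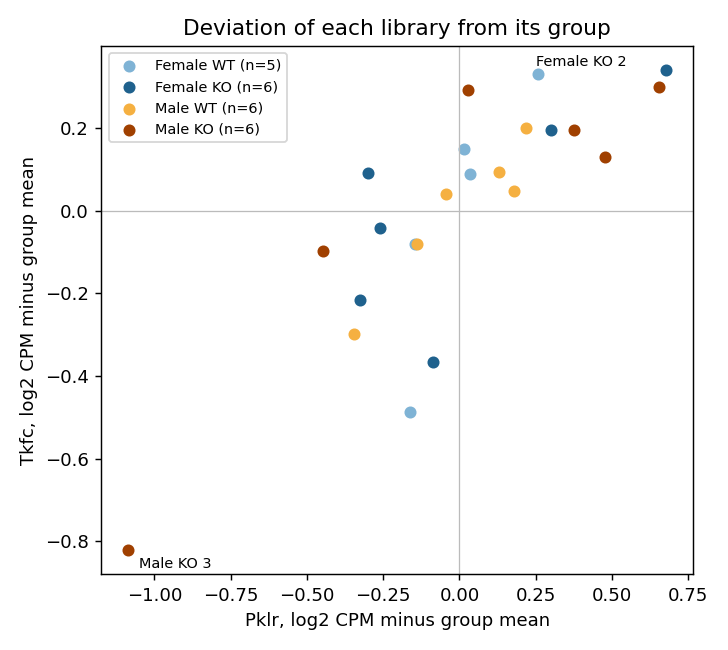
Deviation of each library from its group mean, in log2 CPM, for Pklr (horizontal) and Tkfc (vertical), with 1 point per library coloured by group. The 23 points rise together (r = 0.82), with Male KO replicate 3 at the lower left and Female KO replicate 2 at the upper right.

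Txnip did not track the other genes closely within groups. Its correlations were 0.29 with Arrdc4, 0.28 with Mlxipl, 0.30 with Pklr, 0.00 with Khk and 0.31 with Tkfc, all with adjusted permutation p of 0.33 or above. Among 11369 genes these partners ranked between 1367 and 5885. Mlxipl correlated with Pklr at 0.47 (adjusted permutation p = 0.34) and with Khk at -0.56 (adjusted permutation p = 0.33), the latter at -0.33 without the 2 farthest libraries. The 5 genes whose deviations were most like those of Txnip over the 23 libraries, among 7705 named genes with a mean of at least 5 CPM, were Olfm1 (r = 0.67), Srpk2 (0.66), Cbx6 (0.65), Col6a1 (0.63) and Rbmx (0.63). Over all 11369 genes the median r was 0.01. These 5 values are the highest of many and were not tested. Olfm1 had a mean of 6.14 CPM and Srpk2, a kinase of splicing factors, one of 14.0 CPM. Their KO differences in females were -0.24 for Olfm1 and 0.17 for Srpk2.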

How the data were processed

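Poly(A) RNA of 23 mouse livers was measured by 3′ end counting. For each library the authors deposited estimated counts and CPM values of 65535 genes, and 11373 gene IDs have no name. That number of genes is the row limit of an xls sheet, so genes may be missing. Many deposited expected counts are fractional (genes with a fraction held 33.7% to 55.0% of a library's counts), so they were rounded to whole numbers for the count tests. The deposited CPM values refer to totals that exceed the table's sums by 0.575% to 1.14%. Reads were handled with STAR 2.7.11, featureCounts, Subread 2.1.1, fastp 0.24.0, FastQC 0.12.1, MultiQC 1.32 and SAMtools 1.22.1 on the build mm39, per the submitters' processing notes. Their order and settings are not given in the sources used here. Reads of genes that overlap or resemble each other may have been divided between them.

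Sample titles gave the groups and the replicate numbers. All libraries entered 1 fit with edgeR 4.0.16 in R 4.3.3 (TMM scaling, default filterByExpr filter, quasi-likelihood test), which left 11370 genes, and a gene is called where its p, adjusted over all of these by Benjamini and Hochberg, is under 0.05. The comparisons tested were KO against WT in males and males against females averaged over genotypes. Correlations used log2 CPM with a prior count of 2. DESeq2 1.42.0, limma-voom (limma 3.58.1), other scalings, no filter, the replicate number as a block and leaving out each library were tried as alternatives. The fit was checked on simulated counts first. Within groups the counts of all 55 library pairs differed beyond sampling noise (chi-square per degree of freedom 2.78 to 32.2), so no library is a copy of another in its group. Each was counted as its own sample because the labels call them biological replicates.

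The 6 genes and all gene lists were chosen with earlier results of these data known. Named besides the 6 are, from each list, the 3 most abundant genes and up to 4 called genes in each direction, and the 5 genes most like Txnip, with the text giving a part of these. A gene that this rule names is not reported here. Errors on means are SD over libraries, and p-values measure the spread between these mice.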

Additional observations from a re-analysis of the deposited data

Results flagged for a closer look

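In 19 genes named here, the highest and lowest library of each of 76 gene groups was compared with the others by Dixon's criterion at the 95% level, by which chance alone marks about 1 group in 20. There were 5 such values. Txnip in Male KO replicate 2 was high at 13.7 CPM, where the other Male KO libraries had 7.78 to 9.48 CPM. Mlxipl in the same library was high at 94.1 CPM against 15.8 to 31.2 CPM in the others. Foxo1 in Female WT replicate 4 was high at 63.7 CPM against 37.0 to 40.8 CPM. Ppargc1a in Male WT replicate 3 was high at 13.5 CPM against 5.91 to 8.35 CPM. Prdx5 in Female KO replicate 3 was low at 288 CPM against 369 to 410 CPM.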

How the results depend on the processing

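Arrdc4 stayed called as lower in males in every setting, at -0.84 to -0.68 without 1 library and -0.78 to -0.73 otherwise, and Txnip stayed uncalled in males, at 0.00 to 0.16 and -0.03 to 0.10. Pklr and Tkfc correlated at 0.68 to 0.86 without 1 library. The number of genes called moved most. In males it was 15, but 157 when low genes were kept, 47 by DESeq2, 8 by limma-voom and 7 to 49 without 1 library. It fell to 7 when replicate 3, 4, 5 or 6 of Male WT was left out and to 9 when replicate 3 of Male KO was, and it was 49 when replicate 2 of Male KO was. In females it was 22, but 62 when low genes were kept, 47 by DESeq2 and 13 to 24 without 1 library (13 when replicate 1 of Female WT was left out). The cause was not tested. The sex call of Khk was lost with no filter (adjusted p = 0.209), by limma-voom (0.0537) and with the replicate block (0.0686), all from models across all genes. Leaving out Male KO replicates 2 and 3 together was chosen after the data were seen, and Mlxipl was then called for sex (-0.33, adjusted p = 0.0472, edgeR).

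Same-numbered libraries deviated together in part. Between the sexes r was 0.027 to 0.472 in WT and -0.148 to 0.453 in KO, with 4 of 5 and 5 of 6 pairs over 0.1, and between genotypes it was -0.264 to 0.393 in females and -0.502 to 0.406 in males. Since not every pair passed 0.1, the numbers were not taken as pairs. With the replicate number as a block, 12 genes were called in males, 15 in females and 1605 for sex, Txnip gave 0.04 in males, Arrdc4 -0.75 for sex, and Pklr with Tkfc r = 0.76. Mlxipl with Khk then passed at r = -0.69 (permutation adjusted p = 0.032). Of the values for single genes and pairs, 700 of 719 were kept in the other settings, and 1586 of 1683 without 1 library. A value of a tested comparison or pair counted as kept if it stayed on its side of the threshold and, where called, in its direction. Uncalled values could change sign and still count, as Mlxipl did in males without Male KO replicate 2. Female genotype values counted as kept if they moved by less than the pooled SD within the female groups. Counts of 14 to 112 for Txnip and 5 to 51 for Arrdc4 a library limit how small a difference could be seen.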
